A study of Homo sapiens with 20 samples.

Results

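The binding of lineage transcription factors and coactivators at the genes that encode the mSWI/SNF complex itself was examined in 20 ChIP-seq peak lists. The 31 genes of the list given for the complex were taken, and every called region (peak) that overlapped the GRCh38 body of a subunit gene or the 10 kb upstream of it was kept. This gave 705 regions over the 10 lists from DMSO-treated cells and 284 over the 10 lists from cells treated with AU-15330, and no region fell in the windows of more than 1 member. In each list, between 0 and 0.284% of all regions lay in these windows, of 1327 to 89902 regions in all.

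mSWI/SNF (BAF) complexes are ATP-driven machines that slide and evict nucleosomes and so keep enhancers and promoters open to transcription factors. Each complex carries 1 of the ATPases SMARCA4 (BRG1) and SMARCA2 (BRM), core subunits that are not all present in every form, and an actin-containing module with the BCL7 proteins. ARID1A or ARID1B with a DPF protein define canonical BAF, ARID2, PBRM1, BRD7 and PHF10 define PBAF, and BRD9 with BICRA or BICRAL defines the non-canonical ncBAF. SS18 and SS18L1 are counted with canonical BAF here but are not particular to it. BCL11A and BCL11B are zinc-finger transcription factors that also join the complex. POU2F3 is the octamer-binding master regulator of tuft cells and of the tuft cell-like small cell lung cancers (SCLC-P), POU2AF2 and POU2AF1 are coactivators that bind POU2F factors on DNA, and IRF4 is a transcription factor on which plasma cells and multiple myeloma depend.

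All cells were established human lines, and each condition was 1 library. NCI-H526 and NCI-H1048 (both SCLC-P) were profiled for POU2F3 with an antibody to the protein and for HA-tagged POU2F3. NCI-H526 was further profiled for HA-POU2AF2, and NCI-H1048 for an HA-tagged protein that the labels do not name. MM1.S and NCI-H929 (both multiple myeloma) were profiled for POU2AF1 and for IRF4. Each of these 10 libraries from DMSO-treated cells had a partner from cells treated with 1 µM AU-15330, a PROTAC degrader of SMARCA2, SMARCA4 and PBRM1, for 4 to 6 h. By the study's methods the HA-tagged proteins were lentiviral dTAG fusions, made in Cas9-expressing cells whose own copy of the gene had been targeted, so these cells differ from the antibody-profiled cells by more than the antibody. The lists carry no RNA and no protein level of the subunits. Within a pair the treatments could not be tested against each other on single libraries, the pairs differ in protein and line and were not taken as replicates, and every share below is a description of these libraries, with an exact (Clopper-Pearson) 95% interval that covers counting error only. The question was whether degrading the ATPases altered factor binding at the genes of the complex.

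The sequences of a few regions are shown first because the results below return to them. In these regions, which lie away from transcription start sites (TSSs), the core of the octamer motif (TTTGCAT, or ATGCAAA on the other strand) is in capitals. The first had the highest fold enrichment of all such regions at a subunit gene in the POU2F3 antibody lists of both SCLC-P lines, in an intron of BCL11A. The second was an ARID1B intron region called in all 6 SCLC-P lists with DMSO, and the third lay in an intron of BCL11B. The last was an intron of SMARCA4 bound in both myeloma lines and in no SCLC-P list, printed over a longer stretch so that it holds the octamer core and the summits of all lists that called it.
BCL11A intron, chr2:60520352-60520412 (GRCh38, plus strand): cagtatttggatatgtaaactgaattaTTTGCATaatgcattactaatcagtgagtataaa
ARID1B intron, chr6:156979493-156979553 (GRCh38, plus strand): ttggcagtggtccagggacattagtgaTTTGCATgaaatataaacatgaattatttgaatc
BCL11B intron, chr14:99235447-99235507 (GRCh38, plus strand): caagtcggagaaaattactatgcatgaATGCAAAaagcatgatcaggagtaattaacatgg
SMARCA4 intron, chr19:10980086-10980236 (GRCh38, plus strand): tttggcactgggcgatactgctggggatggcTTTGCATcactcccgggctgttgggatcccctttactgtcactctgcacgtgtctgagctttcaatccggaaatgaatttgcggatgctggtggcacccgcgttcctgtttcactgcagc

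The sequences of the genes' own promoters were searched for the octamer core and for other motifs. RefSeq promoters (250 bases before to 50 after a start, GRCh38.p14) were found for 26 of the 31 members, with 47 promoters in all, and not for SMARCC1, SMARCC2, ACTL6A, ARID2 and ACTB. Searched on both strands, TTTGCAT was present in a promoter of 2 of the 26 members (BCL11A and BICRA) against 4.46% of all promoters, an IRF motif (GAAA repeated after a spacer of 2 bases) in 2 (SMARCA2 and SMARCB1) against 3.57%, the ETS motif CCGGAAGT in 0 against 4.14%, and the AP-1 motif TGANTCA in 2 against 7.71%. The Sp/KLF motif GGGCGGG was present in 20 members, against 33.1% of all promoters, and the NFY motif CCAAT in 12, against 34.6%. These member counts are over all promoters of a gene and the shares are per promoter, so they are not on the same scale. On a like scale, GGGCGGG lay within 100 bases of the summit in 20.9 to 37.3% of member promoter regions with DMSO. This was below the share of all promoter regions in each list with summits but HA-POU2AF2 (34.8%, against 31.3%). In MM1.S with POU2AF1 it was 20.9%, against 36.4%, and with IRF4 in NCI-H929 37.3%, against 37.9%. The promoters of the ATPase SMARCA4 and of the core subunits SMARCE1 and SMARCD2, at which binding was among the strongest, are shown 5′ to 3′ along the gene with GGGCGGG and CCAAT in capitals.
SMARCA4 promoter, chr19:10960780-10961079 (GRCh38.p14, plus strand): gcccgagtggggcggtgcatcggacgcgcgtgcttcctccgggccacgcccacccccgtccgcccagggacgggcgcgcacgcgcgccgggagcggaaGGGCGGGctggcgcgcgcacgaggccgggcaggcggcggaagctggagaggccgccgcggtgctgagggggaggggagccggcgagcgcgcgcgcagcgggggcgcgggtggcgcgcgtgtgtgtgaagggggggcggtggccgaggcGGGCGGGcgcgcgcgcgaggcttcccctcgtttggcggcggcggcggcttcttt
SMARCE1 promoter, chr17:40647769-40648068 (GRCh38.p14, minus strand): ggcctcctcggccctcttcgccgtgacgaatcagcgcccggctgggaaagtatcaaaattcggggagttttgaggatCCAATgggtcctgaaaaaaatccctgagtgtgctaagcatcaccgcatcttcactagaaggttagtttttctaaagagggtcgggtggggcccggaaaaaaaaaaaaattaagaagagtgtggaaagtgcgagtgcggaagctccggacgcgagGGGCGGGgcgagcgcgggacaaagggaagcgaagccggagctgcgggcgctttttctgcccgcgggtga
SMARCD2 promoter, chr17:63842636-63842935 (GRCh38.p14, minus strand): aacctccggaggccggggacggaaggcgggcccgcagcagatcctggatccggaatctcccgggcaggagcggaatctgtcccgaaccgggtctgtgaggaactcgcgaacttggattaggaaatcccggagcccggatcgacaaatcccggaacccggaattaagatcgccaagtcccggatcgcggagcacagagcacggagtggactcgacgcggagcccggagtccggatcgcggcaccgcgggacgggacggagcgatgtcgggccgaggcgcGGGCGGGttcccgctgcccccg

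With DMSO, most subunit genes carried a region within 1 kb of an own TSS in all lists but those of HA-POU2F3 and the unnamed HA protein in NCI-H1048. In NCI-H526 this held for 29 of 31 members with the POU2F3 antibody, against 57.2% of all protein-coding genes, for 23 with HA-POU2F3 (50.8%) and for 21 with HA-POU2AF2 (37.5%). In NCI-H1048 it held for 26 members with the POU2F3 antibody (39.8%), 8 with HA-POU2F3 (16.3%) and 11 with the unnamed HA protein (17.2%). In MM1.S it held for 27 members with POU2AF1 (58.7%) and 24 with IRF4 (46.9%), and in NCI-H929 for 27 with POU2AF1 (55.6%) and 28 with IRF4 (62.9%). The share of members was above that of all genes in all 10 lists. A gene with more annotated TSSs has more places to be counted (43 TSSs for SMARCA2, 1 for SMARCC1), and the shares were not adjusted for this. A promoter region was likewise common at 52 genes of other chromatin remodelling complexes (CHD and NuRD, ISWI, INO80-type and PRC2), between 18 genes (unnamed HA) and 50 genes (NCI-H929 IRF4), so the high share was shared with other chromatin regulators.

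After AU-15330 the number of members with a region at their own promoter was lower in 9 of 10 pairs and higher in 1. With the POU2F3 antibody in NCI-H526 it was 8, against 17.1% of all genes. With HA-POU2F3 in NCI-H526 it was 11 (24.8%), and with HA-POU2AF2 it was 0 (0.970%). In NCI-H1048 it was 7 with HA-POU2F3 (7.75%) and 0 with the unnamed HA protein (0.742%), while the POU2F3 antibody gave 29 (61.7%), above its 26 with DMSO. In that antibody pair the AU-15330 library was the deeper one, with 51408 regions in all against 38036 with DMSO. The effect of this depth on the count was not tested. In myeloma, POU2AF1 had 23 members in MM1.S (48.5%) and 26 in NCI-H929 (49.6%). IRF4 had 11 members in MM1.S (15.4%) and 2 in NCI-H929 (1.88%), SMARCC1 and SMARCD2.

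These counts include members with no own-promoter region in DMSO, such as BCL11B for POU2AF1 in MM1.S, BCL7A for POU2AF1 in NCI-H929 and SMARCA4 for IRF4 in MM1.S. Of the members bound with DMSO, POU2AF1 was still called at 22 of 27 in MM1.S, against 80.2% of all genes bound with DMSO, and at 25 of 27 in NCI-H929 (84.1%). IRF4 was still called at 10 of 24 in MM1.S (29.2%) and 2 of 28 in NCI-H929 (2.92%). In NCI-H526 the counts were 8 of 29 with the POU2F3 antibody (29.4%), 10 of 23 with HA-POU2F3 (44%) and 0 of 21 with HA-POU2AF2 (2.03%). In NCI-H1048 they were 26 of 26 with the POU2F3 antibody (97.0%), 5 of 8 with HA-POU2F3 (27.0%) and 0 of 11 with the unnamed HA protein (3.13%). POU2AF1 in both myeloma lines and the POU2F3 antibody in NCI-H1048 thus kept most of the members' promoters, as they kept most promoters of all genes.

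**Figure D1:**
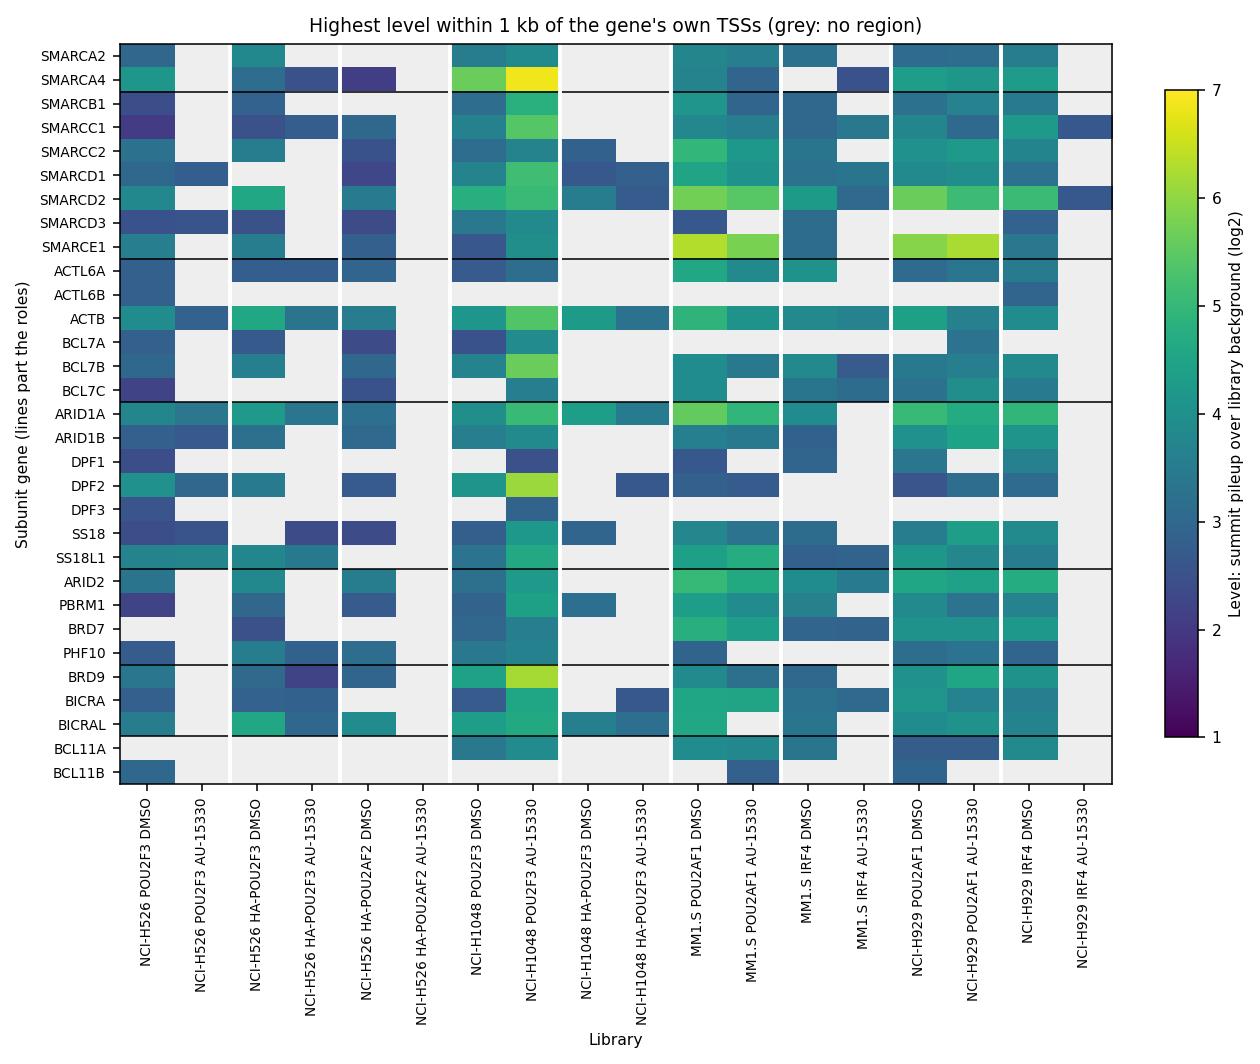
Heat map of 31 subunit genes (rows, black lines between the roles) by the 18 libraries with summits (columns), coloured by the log2 of the highest level (summit pileup over the library's background pileup) within 1 kb of the gene's own TSSs, with grey where no region was called. The HA-POU2AF2 column with AU-15330 is grey throughout, the NCI-H929 IRF4 column with AU-15330 has 2 coloured cells, and the NCI-H1048 POU2F3 column with AU-15330 is the one that is fuller and brighter than its DMSO partner.

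Retention was then read region by region. A DMSO region was counted as retained where the partner list from treated cells had a region that shared at least 1 base with it. Regions within 1 kb of a TSS of a protein-coding gene (called promoter regions here) were kept apart from the others. Over all 10 pairs 121 of 314 promoter regions were retained (38.5%, interval 33.1 to 44.2) and 56 of 391 other regions (14.3%, 11.0 to 18.2). The pairs differed widely around these values, from 0 to 84.8% of promoter regions retained. The pooled intervals treat all regions as draws from 1 share and do not cover this spread. No pooled share of all regions is given, and the share of the whole list stands beside each pair below. With the same number of strongest regions taken from both lists, fewer promoter regions remained and in 5 pairs the share retained lay above the interval given below for that pair. The counts were then 3 of 7 with the antibody in NCI-H526, 3 of 3 with HA-POU2F3 in NCI-H1048, 27 of 30 with POU2AF1 in MM1.S, 3 of 4 with IRF4 in MM1.S and 1 of 1 with IRF4 in NCI-H929. No share of all regions under this setting is set beside these counts, so they do not show a shift particular to the subunit genes. Leaving out each pair in turn, the promoter share ran from 32.7% (without POU2AF1 in NCI-H929) to 45.2% (without IRF4 in NCI-H929) and the other share from 12.1% to 16.7%.

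In NCI-H526, few regions at subunit genes were called again. With the POU2F3 antibody, 6 of 45 promoter regions (13.3%, interval 5.05 to 26.8) were retained, against 22.5% of all promoter regions of the list, and 13 of 93 others (14.0%), against 15.7%. With HA-POU2F3, 9 of 28 promoter regions (32.1%, 15.9 to 52.4) were retained, against 34.4%, and 10 of 60 others (16.7%), against 10.0%. With HA-POU2AF2, 0 of 23 promoter regions (interval up to 14.8%) and 1 of 26 others were retained, against 1.48% and 1.20%. At −log10 q of at least 5 in both lists the promoter share with HA-POU2F3 was 10.5%, and the share of other regions with the antibody 7.35%. With at least 50% of the region covered, the promoter share with the antibody was 4.44%. No whole-list share is set beside these alternative settings. At the main settings the subunit genes were close to their whole list, with the list's share inside the interval of the members in each of the 6 comparisons. The background pileup fell from 4.03 to 2.02 fragments for the antibody pair and from 3.49 to 1.21 for HA-POU2AF2, so that the AU-15330 libraries were shallower. An estimate from the summit pileups gave the share of member promoter regions that would be called at the depth of the AU-15330 library if binding were unchanged, 74.4% for the antibody and 61.8% for HA-POU2AF2. This estimate runs high because regions were listed where the DMSO count was high.

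In NCI-H1048, the libraries gave different pictures of the same genes. With the POU2F3 antibody, 28 of 33 promoter regions (84.8%, interval 68.1 to 94.9) were retained, against 89.8% of all, but 13 of 37 others (35.1%, 20.2 to 52.5), against 33.3%. In this pair the background pileup rose from 2.27 to 3.04 fragments, so that the AU-15330 library was the deeper one. With HA-POU2F3, 5 of 8 promoter regions (62.5%, 24.5 to 91.5) were retained, against 20.1%, and 1 of 16 others (6.25%), against 5.50%. The 8 promoter regions lay at 8 members, and the 5 retained ones were those of SMARCD1, SMARCD2, ACTB, ARID1A and BICRAL. This was the one comparison of the 20 in which the list's share lay outside the members' interval, and it rests on 8 regions. The unnamed HA protein had 0 of 11 promoter regions and 0 of 14 others retained, against 2.56% and 1.83%. Its AU-15330 list had no region at any subunit gene among 1327.

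In the myeloma lines, POU2AF1 regions were retained more often than IRF4 regions at the members' promoters, as over the whole lists. POU2AF1 kept 30 of 43 promoter regions in MM1.S (69.8%, interval 53.9 to 82.8), against 68.0%, and 31 of 39 in NCI-H929 (79.5%, 63.5 to 90.7), against 74.1%. Its other regions were retained in 7 of 31 cases in MM1.S (22.6%), against 15.9%, and in 8 of 30 in NCI-H929 (26.7%), against 16.3%. IRF4 kept 10 of 33 promoter regions in MM1.S (30.3%, 15.6 to 48.7), against 19.9%, and 2 of 51 in NCI-H929 (3.92%, 0.478 to 13.5), against 1.92%. Of its other regions, 2 of 22 were retained in MM1.S (9.09%), against 5.43%, and 1 of 62 in NCI-H929 (1.61%), against 0.592%. With at least 50% of the region covered, the IRF4 promoter shares were 15.2% in MM1.S and 0 in NCI-H929, and at −log10 q of at least 5 no IRF4 region away from promoters was retained in either line. No whole-list share is set beside these alternatives. With DMSO all 24 IRF4-bound members in MM1.S also had POU2AF1 (88.9% of the 27), where over all genes 95% of IRF4-bound promoters had POU2AF1 and 76.0% of POU2AF1-bound ones had IRF4. In NCI-H929 26 members had both (96.3% of 27 for POU2AF1 and 92.9% of 28 for IRF4), against 96.8% and 85.6% over all genes. Background pileup in these 4 pairs was 1.94 to 2.44 fragments, and unchanged binding at the AU-15330 depth would have left 92.0 to 96.3% of the member promoter regions called by the same estimate.

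**Figure D2:**
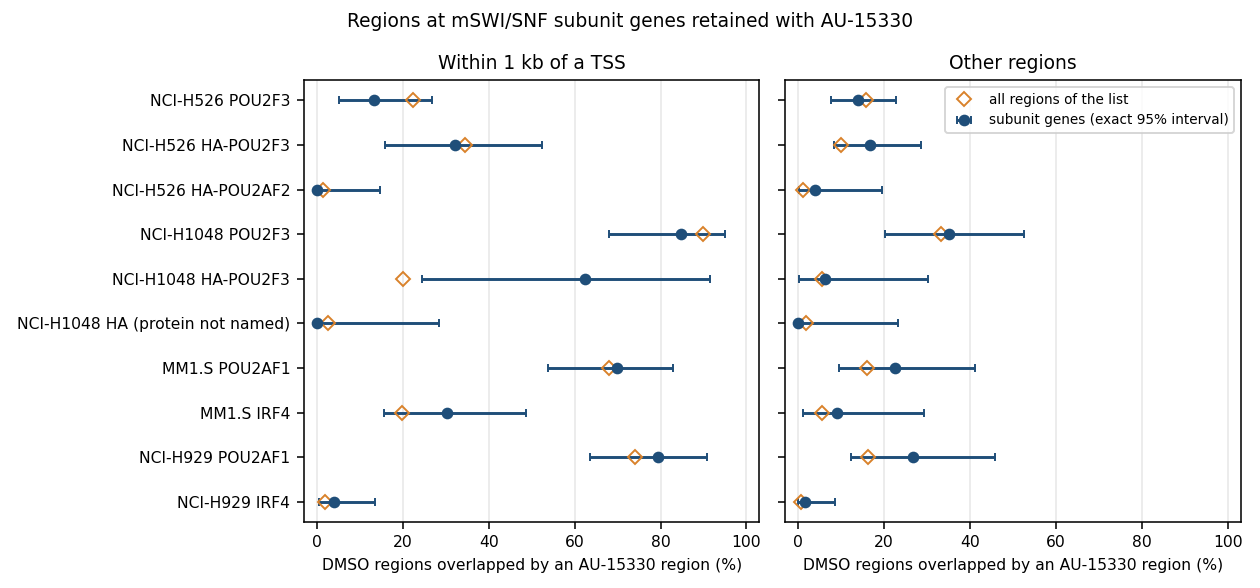
Share of DMSO regions at subunit genes that an AU-15330 region overlapped (x axis, percent) for the 10 pairs (y axis), for promoter regions (left) and other regions (right). Filled points with bars are the subunit genes with exact 95% intervals and open diamonds are all regions of the same list and class, which lie inside the bars everywhere but for promoter regions of HA-POU2F3 in NCI-H1048.

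Where a promoter region was retained, its height was compared as a level, the summit pileup divided by the background pileup of its own library. In NCI-H1048 with the POU2F3 antibody, the level at the 28 retained promoter regions was higher with AU-15330 in 27 of them, with a median ratio of 2.35 (quartiles 1.34 and 2.93), against 2.12 for all retained promoter regions. Of all retained promoter regions of this list, 7.39% were lower. At the 13 retained other regions of this pair the median ratio was 0.876, against 0.834, and 9 of 13 were lower, against 61.1% of all. The higher levels were thus at promoters, in the subunit genes as in the list. By the authors' fold enrichment, which divides by a local background, the median ratio at these promoters was 1.3. In the HA-POU2F3 library of the same line the 5 retained promoters had a median ratio of 0.579, against 0.810 for all retained promoter regions. Of these 5, 4 were lower, against 77.4% of all.

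The size of the change with the POU2F3 antibody depended on the scale. At the SMARCA4 promoter the level was 49.4 with DMSO and 116.9 with AU-15330, a ratio of 2.36, while the authors' fold enrichment was 17.2 and 20.5, a ratio of 1.19. The promoter of BRD9, the bromodomain subunit that marks ncBAF, is shared with TRIP13. At this promoter the levels were 21.6 and 73.4 and the fold enrichments 10.1 and 20.6. At DPF2, a histone-reading subunit of canonical BAF, the levels were 17.2 and 68.2 and the fold enrichments 9.05 and 21.4. At BCL7B the levels were 12.8 and 49.7 and the fold enrichments 5.17 and 13.4. At these 4 promoters both scales were higher with AU-15330, whereas at SMARCD2 the level was higher and the fold enrichment lower (13.4 and 11.5). The same promoters were lower or not called in NCI-H526 with the POU2F3 antibody, where SMARCA4 (18.1), BRD9 (10.2) and BCL7B (8.18) had no region after AU-15330 and DPF2 went from 16.4 to 7.90. Among the promoters that moved least in NCI-H1048 was SMARCD2, at 27.4 and 32.9, and SMARCD3 was the one lower with AU-15330, at 10.6 and 8.89.

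In MM1.S, POU2AF1 stayed at the promoters at a lower level. Of 30 retained promoter regions 29 were lower, against 76.9% of all retained promoter regions. The median ratio was 0.727 (quartiles 0.652 and 0.849), against 0.813 for all. In NCI-H929 the 31 retained promoter regions had a median ratio of 1.09 (0.807 and 1.32), against 0.981, with 13 of 31 lower, against 52.0% of all. The promoter of SMARCE1, a DNA-bending core subunit, was the strongest POU2AF1 region of any subunit gene in both lines. Its level was 79.8 with DMSO and 55.1 with AU-15330 in MM1.S, and 59.9 and 74.9 in NCI-H929, so the lines moved in opposite directions. At the same promoter the IRF4 level was 8.66 in MM1.S and 10.6 in NCI-H929, and no IRF4 region was called there after AU-15330.

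For the remaining pairs few promoter regions were left to compare. The median ratio was 0.782 for 6 regions with the POU2F3 antibody in NCI-H526 (0.791 for all), 0.632 for 9 with HA-POU2F3 in NCI-H526 (0.739), 0.887 for 10 with IRF4 in MM1.S (0.770), and 0.259 for 2 with IRF4 in NCI-H929 (0.456). A retained region must still exceed the caller's threshold, so these ratios leave out the regions that fell below it. Scaled to a median ratio of 1 over all retained regions of a pair, the ratio turned above 1 at promoters for the antibody in NCI-H526 (1.23) and for IRF4 in MM1.S (1.21).

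**Figure D3:**
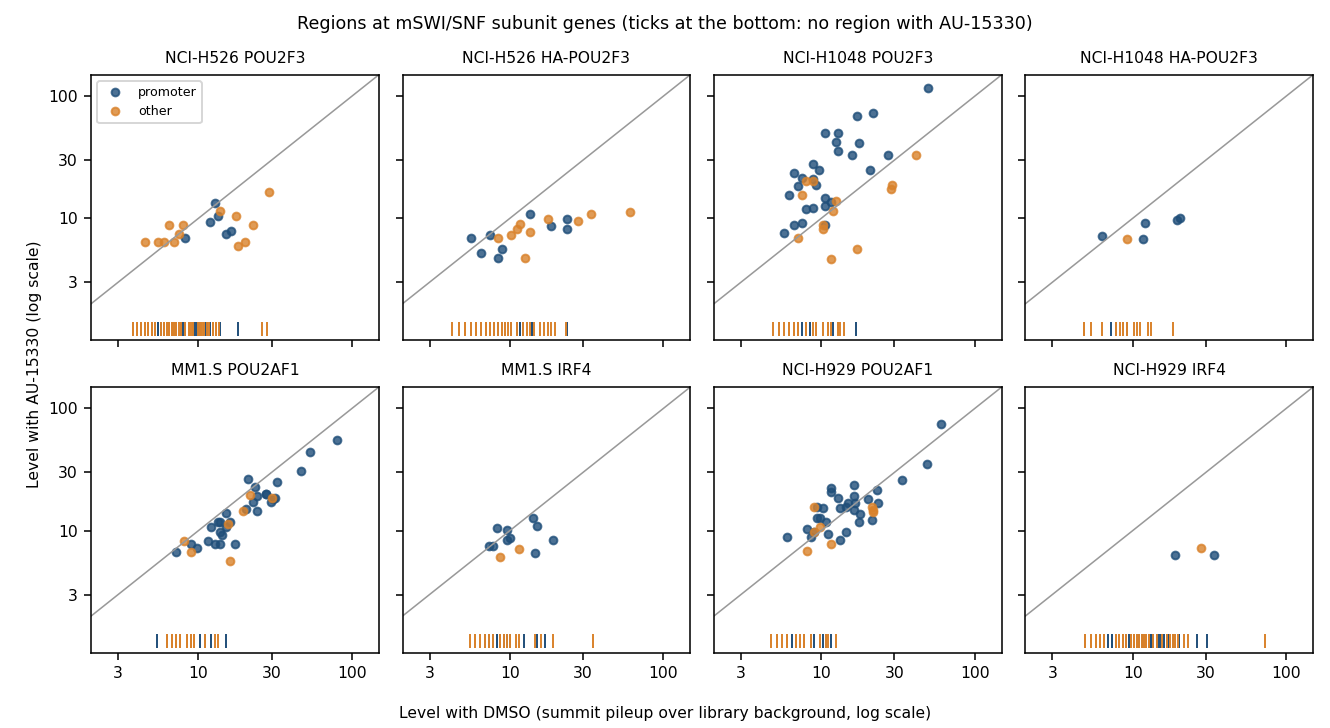
Level with AU-15330 (y axis, log scale) against level with DMSO (x axis, log scale) for each region at a subunit gene in 8 pairs, with promoter regions in blue and other regions in orange. Points are retained regions, the grey line marks equal levels, and ticks along the bottom are DMSO regions with no AU-15330 region. Blue points lie above the line with the POU2F3 antibody in NCI-H1048 and below it with POU2AF1 in MM1.S, and nearly all regions of IRF4 in NCI-H929 are ticks.

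The ATPase genes themselves held 68 DMSO regions over the 10 pairs, of which 12 were retained (17.6%), with promoter and other regions counted together. No share of all regions was computed for that mix of lists and classes. At own promoters it was 9 of 34 (26.5%), where the shares of all promoter regions in the same pairs would have given 38.3%. This rests on 2 genes with several regions each, and the difference was not tested. SMARCA4, the ATPase that AU-15330 degrades alongside SMARCA2, had a region at an own promoter in 7 of 10 lists with DMSO and in 5 with AU-15330. Its promoter site, chr19:10960416-10961523, had DMSO levels of 18.1 (POU2F3 antibody), 8.85 (HA-POU2F3) and 4.30 (HA-POU2AF2) in NCI-H526. It reached 49.4 with the POU2F3 antibody in NCI-H1048 and had no region with HA-POU2F3 in that line. In myeloma it had 12.9 with POU2AF1 in MM1.S, 20.1 with POU2AF1 in NCI-H929 and 20 with IRF4 in NCI-H929, and no IRF4 region in MM1.S. After AU-15330 it was called in 4 lists, at 5.59 (HA-POU2F3 in NCI-H526), 116.9 (POU2F3 antibody in NCI-H1048), 7.72 (POU2AF1 in MM1.S) and 18.1 (POU2AF1 in NCI-H929). The 18.1 region lost in the antibody library of NCI-H526 was the strongest promoter region of any subunit gene in that list by the authors' fold enrichment (13.2, rank 995 of 89902). The AU-15330 library of that pair was the shallower one, and the cause of the loss was not tested.

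The SMARCA4 intron shown above was the strongest IRF4 region away from promoters at any subunit gene in both myeloma lines. By fold enrichment it ranked 33 of 33327 regions in MM1.S (14.8-fold over local background, level 34.7) and 86 of 65176 in NCI-H929 (18.2-fold, level 73.2). After AU-15330 no IRF4 region was called there in either line. This held for most IRF4 regions away from promoters, of which 5.43% in MM1.S and 0.592% in NCI-H929 were retained over the whole lists. POU2AF1 was also present, at a level of 16.0 in MM1.S, where 5.66 remained with AU-15330, and at 9.84 in NCI-H929, where no region remained. The site was therefore high for IRF4 in both lines, lower for POU2AF1, and absent from all 12 SCLC-P lists. The IRF4 summits lay 56 bases (NCI-H929) and 68 bases (MM1.S) downstream of the middle of its octamer core, and the POU2AF1 summits 62 to 97 bases. Neither the IRF motif nor the ETS-IRF composite (GGAA, a spacer of 2 bases, then GAAA) was found within 100 bases of the IRF4 summits, which says only that these letters were not in the window.

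**Figure D4:**
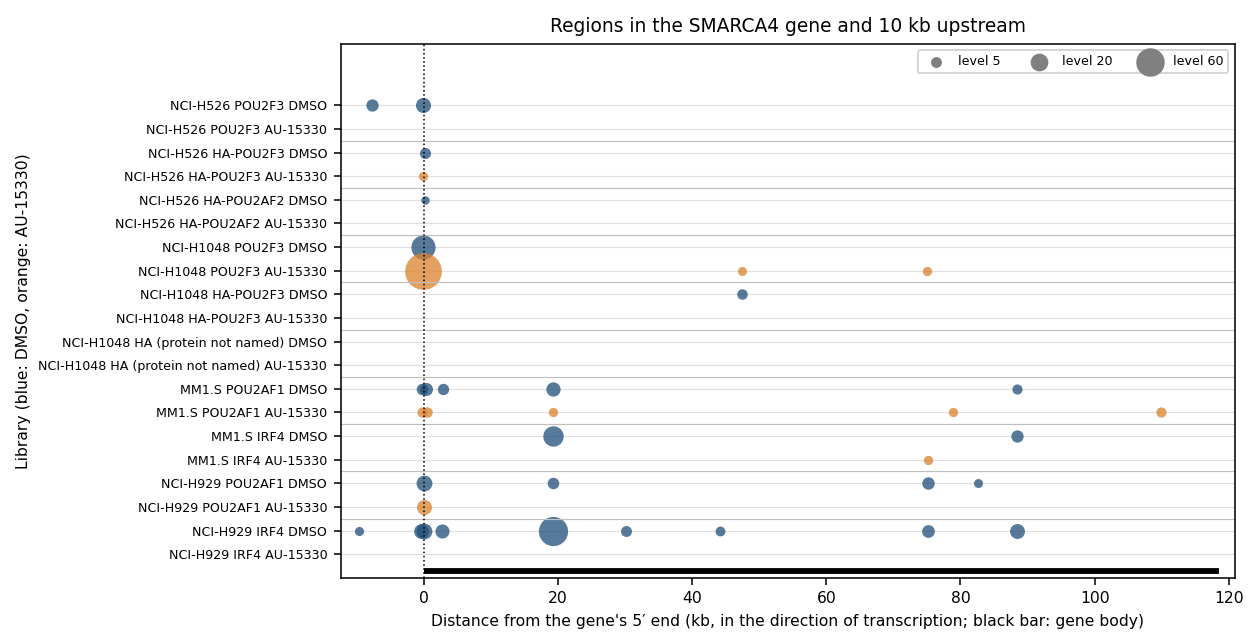
Regions in the SMARCA4 gene and 10 kb upstream in each of the 20 lists (rows, blue for DMSO and orange for AU-15330), placed by the distance of their centre from the gene's 5′ end in kb along the direction of transcription, with circle area rising with level (fold enrichment for the unnamed HA pair). The largest circle of the NCI-H929 IRF4 row is the intronic site at a level of 73.2, which has no counterpart in the row below, and the promoter circle of the NCI-H1048 POU2F3 rows grows from 49.4 to 116.9.

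SMARCA2, the alternative ATPase, had a region at an own promoter in 7 lists with DMSO and in 3 with AU-15330. At the promoter site chr9:2014817-2015835 the DMSO levels were 7.93 (POU2F3 antibody) and 14.0 (HA-POU2F3) in NCI-H526, 11.5 with the antibody in NCI-H1048, 13.4 (POU2AF1) and 9.58 (IRF4) in MM1.S, and 8.56 (POU2AF1) and 11.5 (IRF4) in NCI-H929. With AU-15330 it was 13.5 with the antibody in NCI-H1048, 11.8 with POU2AF1 in MM1.S and 8.82 with POU2AF1 in NCI-H929. Those 3 libraries are also the ones in which most other members kept their promoters. A SMARCA2 intron, chr9:2053138-2054214, was bound in the 4 myeloma lists with DMSO and in no SCLC-P list. There IRF4 (14.6 in MM1.S, 19.6 in NCI-H929) had no region after AU-15330, as held for most IRF4 regions of both lists. POU2AF1 remained there in both lines, at 6.69 from 8.91 in MM1.S and at 7.84 from 11.6 in NCI-H929.

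By role, the core genes (SMARCB1, SMARCC1, SMARCC2, SMARCD1 to SMARCD3 and SMARCE1) had own-promoter regions retained in 30 of 73 cases (41.1%) over the 10 pairs. The actin and BCL7 genes had 21 of 48 (43.8%), canonical BAF 29 of 76 (38.2%), PBAF 13 of 36 (36.1%), ncBAF 16 of 35 (45.7%), the ATPases 9 of 34 (26.5%) and the BCL11 genes 2 of 9 (22.2%). The roles draw unequally on the 10 pairs, and at the share of all promoter regions retained in each pair the same regions would have given 35.0% for the core, 36.3% for actin and BCL7, 37.1% for canonical BAF, 38.2% for PBAF, 39.4% for ncBAF, 38.3% for the ATPases and 48.7% for the BCL11 genes. Regions of 1 gene and 1 list are not independent, and these shares were not tested against each other. Among core genes SMARCD2, a scaffold subunit, was bound at its promoter site in all 10 DMSO lists, with levels of 10.9 to 53.0 in the 9 with summits. After AU-15330 it was called in all 4 myeloma lists (43.8 and 8.34 for POU2AF1 and IRF4 in MM1.S, 34.8 and 6.27 in NCI-H929) and in both lists of NCI-H1048 that name their protein (32.9 and 6.73), and in none of NCI-H526. In NCI-H526 the levels before treatment had been 13.9, 23.7 and 10.9. ACTB, which encodes the actin of the complex and of the cytoskeleton, was the promoter bound in most AU-15330 lists, 7 of 10.

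Among the subtype-defining genes, ARID1A had its main promoter site bound in all 10 DMSO lists and in 5 with AU-15330. Its POU2AF1 level was 46.8 and then 30.9 in MM1.S and 33.4 and then 26.0 in NCI-H929, while IRF4 (15.0 in MM1.S, 30.7 in NCI-H929) was not called there after treatment. PBRM1, the PBAF subunit that AU-15330 also degrades, shares its promoter with GNL3. It was bound in all 10 DMSO lists and in 3 with AU-15330, at 21.4 (from 7.50) with the POU2F3 antibody in NCI-H1048, 14.9 (from 20.5) with POU2AF1 in MM1.S and 9.80 (from 14.5) with POU2AF1 in NCI-H929. BICRAL, the ncBAF scaffold, was bound in all 10 with DMSO and in 5 with AU-15330 at the merged site chr6:42781295-42783906. With POU2AF1 in MM1.S the AU-15330 region there had its summit 1.35 kb from the TSS and lay in an intron. The own promoter of BICRAL was therefore called in 4 lists with AU-15330. The members with a promoter region in the fewest DMSO lists were DPF3 (1, and 1 with AU-15330), BCL11B (2 and 1) and ACTL6B, the actin-related subunit of neurons (2 and 0).

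Sites were then compared between the tumour types, which here also differ in the protein profiled, so that tumour type and protein cannot be told apart. Regions of all 20 lists merged into 326 sites, 75 at promoters and 251 elsewhere. With DMSO, 38 promoter sites (50.7%) were bound in both tumour types, against 50.5% of the promoter sites of all lists merged the same way, 11 in SCLC-P only and 21 in myeloma only. Of the other sites, 12 (4.78%) were bound in both, against 4.28% of all, 118 in SCLC-P only and 76 in myeloma only. The subunit genes were thus close to all sites in this respect. The 5 sites bound in all 10 DMSO lists were all promoters, those of ARID1A, SMARCD2, PBRM1, BICRAL and ACTB, and no site was bound in all 10 AU-15330 lists. SCLC-P has more lists than myeloma, and 183 of the 326 sites were in 1 list alone.

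Away from promoters, a BCL11 gene had the member region of highest fold enrichment in each SCLC-P DMSO list but that of the unnamed HA protein. There it was an ARID1B intron (5.03). The order by level was not the same, since a PHF10 intron, chr6:169722059-169722536, stood at 28.0 (antibody) and 34.0 (HA-POU2F3) in NCI-H526 with DMSO. The BCL11A intron was called in all 6 SCLC-P lists with DMSO and in no myeloma list. Its levels with DMSO and AU-15330 were 22.6 and 8.89 with the POU2F3 antibody in NCI-H526, 13.5 and 7.75 with HA-POU2F3, and 12.3 and 9.93 with HA-POU2AF2. In NCI-H1048 they were 28.3 and 17.5 with the POU2F3 antibody, and 18.4 with no region after AU-15330 for HA-POU2F3. The level was thus lower in each of the 5 pairs with summits, but a region remained in 4, and for HA-POU2AF2 it was the only member region retained of 49. The octamer core lay 4 to 14 bases from the summit in the 4 DMSO lists in which this region was among the strongest. A further BCL11A site over an exon, chr2:60534871-60535375, had a level of 41.5 and then 32.9 with the POU2F3 antibody in NCI-H1048 and 27.9 and then 9.47 with HA-POU2F3 in NCI-H526. With the POU2F3 antibody in NCI-H526 this exon site was weaker with DMSO (8.68) and was not called after AU-15330. The BCL11B intron was called in 5 SCLC-P lists with DMSO, at 29.0, 61 and 14.9 in NCI-H526 (antibody, HA-POU2F3, HA-POU2AF2) and 10.2 and 9.19 in NCI-H1048 (antibody, HA-POU2F3). With AU-15330 it stood at 16.3 and 11.2 in NCI-H526, was not called for HA-POU2AF2, and stood at 8.23 and 6.73 in NCI-H1048. These are the highest levels over a wide site and not always the same summit. In NCI-H526 the DMSO summits lay 35.44 kb (antibody) and 35.43 kb (HA-POU2F3) from the TSS. The HA-POU2AF2 summit at 14.9 lay at 36.04 kb, near the octamer core shown above. With AU-15330 the antibody regions stood at 16.3 (35.97 kb) and 14.3 (35.38 kb).

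**Figure D5:**
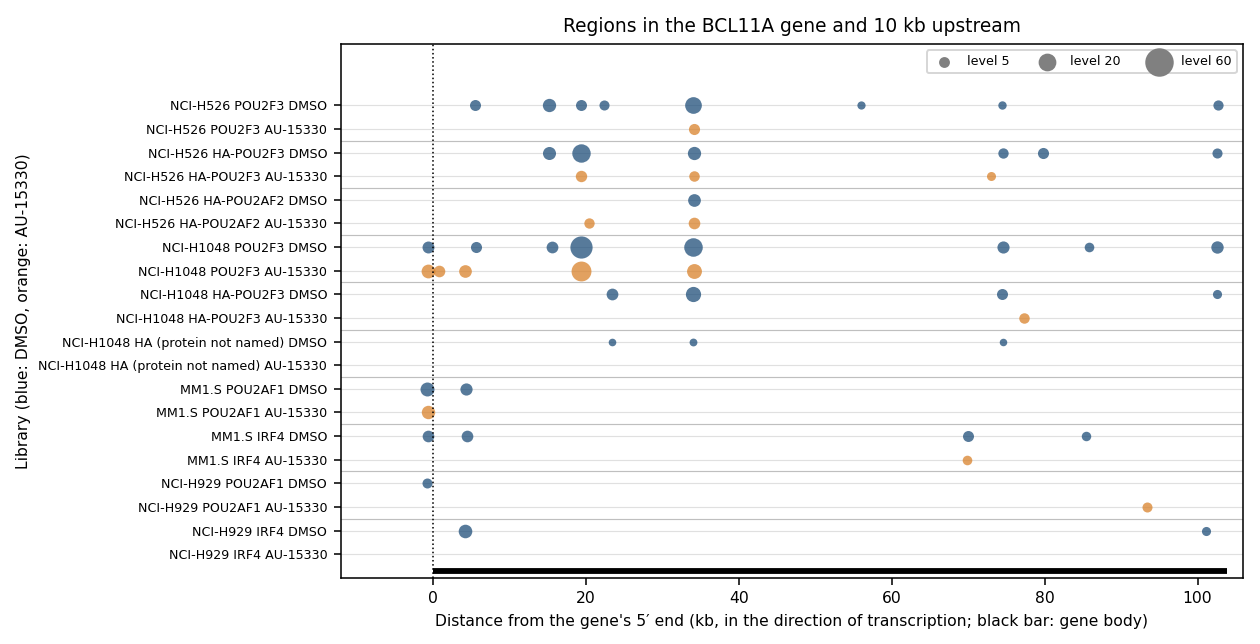
Regions in the BCL11A gene and 10 kb upstream in each of the 20 lists (rows, blue for DMSO and orange for AU-15330), placed by distance from the gene's 5′ end in kb along the direction of transcription, with circle area rising with level (fold enrichment for the unnamed HA pair). The intronic site near 34 kb is present in all 6 SCLC-P rows with DMSO, in 4 with AU-15330 and in no myeloma row.

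ARID1B, the longest of the genes at 434.8 kb, held 119 of the 705 DMSO regions, and 14 of these were retained. Own-promoter regions made up 20 of the 119, with 4 retained, and no share of all regions was computed for this mix of lists. The ARID1B intron shown above was called in all 6 SCLC-P lists with DMSO, at 17.6, 19.6 and 11.5 in NCI-H526 (antibody, HA-POU2F3, HA-POU2AF2) and 17.2 and 11.1 in NCI-H1048 (antibody, HA-POU2F3). With AU-15330 it remained with the POU2F3 antibody alone, at 10.4 in NCI-H526 and 5.60 in NCI-H1048. Another ARID1B intron site, chr6:156787989-156788378, reached 26.0 with the antibody and 23.3 with HA-POU2F3 in NCI-H526 and had no region in any list after AU-15330. Strong DMSO regions of this gene were thus lost as well as weak ones. A site bound across tumours was the BCL7C intron chr16:30874779-30876096, called in 8 DMSO and 6 AU-15330 lists. POU2AF1 stood there at 19.6 and then 14.4 in MM1.S and at 21.8 and then 14.7 in NCI-H929. POU2F3 antibody binding of 20.1 appeared there in NCI-H1048 with AU-15330, where no region was called with DMSO.

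The octamer core was more frequent in POU2F3 and POU2AF2 regions away from promoters than at promoters, among the members as in the whole lists, but in each of these lists the members' share away from promoters lay below that of all such regions. TTTGCAT lay within 100 bases of the summit in 40 of 93 such regions with the antibody in NCI-H526 (43.0%, against 52.8% of all such regions) and in 16 of 37 in NCI-H1048 (43.2%, against 53.1%). It did so in 9 of 16 with HA-POU2F3 in NCI-H1048 (56.2%, 58.8%), 15 of 60 with HA-POU2F3 in NCI-H526 (25%, 41.9%) and 12 of 26 with HA-POU2AF2 (46.2%, 56.4%). In member promoter regions of these lists the share was 4.35 to 12.5%, against 8.01 to 16.3% of all promoter regions. In myeloma the octamer core was in 2 of 31 (6.45%, against 9.64% of all) POU2AF1 regions away from promoters in MM1.S and 4 of 30 (13.3%, 11.2%) in NCI-H929, and the IRF motif in 4 of 22 (18.2%, 14.1% of all) and 6 of 62 (9.68%, 13.5%) of those of IRF4. Retention of member regions with and without the core, with promoter and other regions counted together, went in no common direction. With the antibody in NCI-H526 it was 3 of 44 with the core and 16 of 94 without it, against 19.4% and 14.2% of all regions of the list. With HA-POU2F3 in NCI-H526 it was 6 of 17 and 13 of 71, against 13.0% and 15.4%. With the antibody in NCI-H1048 it was 11 of 20 and 30 of 50, against 39.9% and 48.4%, and with HA-POU2F3 in NCI-H1048 2 of 10 and 4 of 14, against 7.18% and 8.32%. Member regions with the core lay mostly away from promoters, 40 of 44 and 16 of 20 with the antibody in NCI-H526 and NCI-H1048. The presence of the core and the class of region therefore cannot be told apart in these counts.

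New regions with AU-15330 were 101 of the 284, and 48 of these belonged to the POU2F3 antibody in NCI-H1048. In that list 48 of 89 member regions (53.9%) had no DMSO region under them, against 67.3% of all regions, with 21 at promoters and 27 elsewhere. That library was deeper than its DMSO partner (background pileup 3.04 against 2.27 fragments). With the antibody in NCI-H526 the count was 5 of 25, against 15.3% of all, with HA-POU2F3 11 of 31 (41.9%) and with HA-POU2AF2 4 of 5 (83.8%). It was 8 of 14 with HA-POU2F3 in NCI-H1048 (73.7%) and 0 of 0 with the unnamed HA protein (72.0%). In myeloma it was 12 of 51 (38.9%) and 7 of 48 (31.2%) for POU2AF1 in MM1.S and NCI-H929, and 4 of 16 (49.9%) and 2 of 5 (70.7%) for IRF4. Most new regions were weak. By fold enrichment the strongest of each list stood at a level of 6.58 to 9.80 outside the NCI-H1048 antibody list, where it was the BCL7C intron at 20.1.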

How the data were processed

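ChIP-seq peak lists of 20 libraries (10 pairs of DMSO and AU-15330) were used. After trimming (Trimmomatic 0.39), the authors mapped reads to GRCh38/hg38 with BWA, removed duplicates with Picard, and called peaks with MACS2 at a q-value threshold of 0.05, without a stated control. The deposited columns hold the summit's fold enrichment (a ratio over the local background), −log10 p and −log10 q values, a whole-number score and the summit's distance from the region's start. The unnamed HA pair has no summits, so no level was computed for it.

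Depth is given by the smallest background pileup, 1.21 to 4.03 fragments. The whole summit pileup was recovered from the authors' fold enrichment and −log10 p (tolerance 0.002), and the level is that pileup over the library's background. Genes and TSSs are from GENCODE release 44 on GRCh38, and regions outside the main chromosomes were left out (0.283 to 12.4% of a list). Windows, overlaps and motifs (100 bases to either side of the summit) were computed with Python 3.11, pandas, scipy and pysam, and pileup recovery and overlap were tested on simulated data. Named regions were the 2 strongest promoter and other regions by fold enrichment of each DMSO list, the strongest of each ATPase gene, and the strongest new region of each AU-15330 list. Sites bound in many lists, and the other sites and levels given by gene, were chosen after their values were seen. Members and lists were chosen with earlier results of these data known. The ETS-IRF composite and the shares without single pairs were added after seeing the data. Alternatives changed the q threshold, the overlap, the number of regions, the windows and the scale.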

Additional observations from a re-analysis of the deposited data

How the results depend on the processing

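The 10 pairs differ in protein and line, and several share a line, so they were not taken as replicates of the treatment and no paired test over them was run. Shares retained stayed inside their intervals in all 10 pairs with promoters within 2 kb, with 50 kb upstream and with the gene body alone.

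With −log10 q of at least 5 in both lists, promoter shares became 10.5% (HA-POU2F3 in NCI-H526) and 0 (NCI-H929 IRF4), and other shares 7.35% (NCI-H526 antibody) and 0 for HA-POU2AF2, HA-POU2F3 in NCI-H1048 and IRF4 in both lines. With at least 50% of the region covered, promoter shares became 4.44% (NCI-H526 antibody), 15.2% (MM1.S IRF4) and 0 (NCI-H929 IRF4), and the other share of MM1.S IRF4 became 0. With the same number of strongest regions from both lists, promoter shares became 42.9% (3 of 7, NCI-H526 antibody), 100% (3 of 3, HA-POU2F3 in NCI-H1048), 90% (27 of 30, MM1.S POU2AF1), 75% (3 of 4, MM1.S IRF4) and 100% (1 of 1, NCI-H929 IRF4). Other shares became 40.0%, 42.9% and 33.3% (1 of 3) for the antibody, HA-POU2F3 and HA-POU2AF2 in NCI-H526, 0 (MM1.S IRF4) and 50% (1 of 2, NCI-H929 IRF4), and the unnamed HA pair gave no value. Few member regions are left in that setting, and no share of all regions is set beside the alternative shares given here. Over all pairs the promoter share was 33.1% without the NCI-H1048 antibody pair, 32.7% without NCI-H929 POU2AF1 and 45.2% without NCI-H929 IRF4, alternatives chosen after seeing the data, and stayed inside its interval without each of the other 7 pairs.

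At −log10 q of at least 5, members with an own-promoter region numbered 2 (NCI-H526 antibody, AU-15330), 4 (HA-POU2F3 in NCI-H526, AU-15330), 2 (HA-POU2F3 in NCI-H1048, AU-15330), 5 (MM1.S IRF4, AU-15330), 0 (NCI-H929 IRF4, AU-15330) and 2 (unnamed HA, DMSO). Members with any region in the window numbered 6, 9, 3, 5, 0 and 3 in the same lists, and 0 for HA-POU2AF2 with AU-15330. New regions numbered 2 (NCI-H526 antibody), 2 (HA-POU2F3), 0 (HA-POU2AF2), 29 (NCI-H1048 antibody), 2 (HA-POU2F3 in NCI-H1048), 3 and 2 (POU2AF1 in MM1.S and NCI-H929), and 0 for IRF4 in both lines.

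Scaled so that all retained regions of a pair had a median ratio of 1, the median level ratio turned above 1 for promoters (1.23) and others (1.46) with the NCI-H526 antibody, for the single other region of HA-POU2AF2 (1.01) and for MM1.S IRF4 promoters (1.21), and reached 1.00 for the single other region of HA-POU2F3 in NCI-H1048. It moved to 0.985 and 0.882 (HA-POU2F3 in NCI-H526, promoters and others), 0.90 (MM1.S POU2AF1 promoters), 0.904 (MM1.S IRF4 others), and 0.528 and 0.525 (NCI-H929 IRF4). With the authors' fold enrichment in place of level, it was 0.611 (HA-POU2AF2 others), 1.3 (NCI-H1048 antibody promoters, against 2.35), 0.747 (HA-POU2F3 in NCI-H1048, others), 0.874 (MM1.S POU2AF1 promoters), 0.809 (MM1.S IRF4 others), and 0.504 and 0.388 (NCI-H929 IRF4). The cause of these changes was not tested.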
